A study of Homo sapiens with 8 samples.

Results

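The early knock-down of the MLL/AF4 fusion transcript was followed in SEM, a long-established line of MLL/AF4-positive acute lymphoblastic leukaemia cells of B-cell precursor type. The comparison was formed from the treatment and day in the sample labels and took 4 of the 8 arrays of the series. These were cells electroporated with siRNA against MLL/AF4 (siMLL/AF4) and cells electroporated with a control siRNA (siCtrl), each harvested on day 2 after 1 siRNA pulse and on day 4 after 2 pulses, with 1 array per treatment and day. Cells pulsed without any siRNA (MOCK) on day 2 and day 4 are given beside them, and siMLL/AF4 and siCtrl cells of day 6, hybridised to a newer array version, are used to follow the genes later. All cells were grown in RPMI-1640 with 10% fetal calf serum and were harvested just before the next pulse was due. The line stands for a single leukaemia, every sample had passed through electroporation, and no label says that the days came from separate cultures, so spread below means spread between the 2 days, which may be technical.

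MLL/AF4 joins the amino-terminal part of the chromatin regulator MLL, encoded by KMT2A, to the carboxy-terminal part of AF4, encoded by AFF1, a scaffold of the complexes that release paused RNA polymerase. The fusion protein binds promoters of haematopoietic genes such as HOXA and MEIS1 family members and is known to keep leukaemic cells in a self-renewing precursor state. Depleting it in MLL-rearranged cells is known to slow growth and to lower stem-cell markers such as PROM1.

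Values are log2 expression values. The deposited values were inferred to be natural logs, and if they were logs to base 2, all levels and differences on the log2 scale would shrink by a factor of 0.693. A gene was tested when its brightest probe had a value on all 4 arrays and a mean no lower than that of the median probe, which left 9748 genes. For fold counts and for ranking, values under the median of all values on the 4 arrays (5.16 on the log2 scale) were set to that floor, since differences between dimmer values are mostly noise. The 8 arrays had nearly equal medians and 28.5 to 28.8% missing entries. Of the B-cell precursor markers on the array, 9 of 11 reached the floor on at least 1 of the 4 arrays, against 5 of 19 myeloid, 7 of 19 T and NK cell and 2 of 15 erythroid and megakaryocyte markers. CEBPA and CSF1R, genes of the myeloid lineage, were among the bright ones. The summed linear level of the 7 tested B-cell precursor markers was 8821 and 10835 in siMLL/AF4 cells on days 2 and 4, against 8613 and 8240 in siCtrl cells. The members of this sum were mixed. Of the 7 markers 2 were higher and 2 lower on both days, and 3 were lower on day 2 and higher on day 4. Their median difference was -0.10 on day 2 and 0.85 on day 4. The 4 tested myeloid markers summed to 3614 and 2600 in siMLL/AF4 cells, against 5508 and 3686 in siCtrl cells, a sum made up mostly of CEBPA, which was lower by 0.77 and 0.55. The other members did not follow it: LYZ, lysozyme, was higher by 1.38 and 0.67, CD68, a lysosomal protein of macrophages, was higher by 0.10 and 0.43, and CSF1R differed by 0.57 and -1.40. The median difference of the 4 markers was 0.34 on day 2 and -0.06 on day 4, and their part in the results below was not tested. As the arrays measured whole cultures, fewer cells of a kind and less RNA per cell cannot be told apart. The siCtrl array of day 2 had the lowest median rank correlation with the other 5 arrays of the older version (0.911, against 0.915 to 0.921 for the others), and results that lean on it are marked by the MOCK values.

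The genes that encode the fusion partners were lower in siMLL/AF4 than in siCtrl cells on both days. KMT2A read 7.17 and 6.42 in siMLL/AF4 cells on days 2 and 4, against 7.66 and 6.97 in siCtrl cells and 7.11 and 6.38 in MOCK cells. The brighter of the AFF1 probes read 7.90 and 7.88 in siMLL/AF4 cells, against 9.92 and 9.09 in siCtrl cells and 8.50 and 7.75 in MOCK cells. The other AFF1 probe read 7.16 and 6.01 in siMLL/AF4 cells, against 7.50 and 7.39 in siCtrl cells and 6.01 and 6.07 in MOCK cells. On each day all 3 probes were highest in siCtrl cells. The sources used here do not say whether these probes read the normal transcripts, the fusion transcript or both, so they do not check the knock-down of the fusion.

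Tested over both days with day as a block, 5 of the 9748 genes (0.0513%) passed an adjusted p of 0.05 in limma, 4 higher (0.0410%) and 1 lower (0.0103%) in siMLL/AF4 cells. Before adjustment 758 genes (7.78%) had a p under 0.05, 420 of them higher (4.31%) and 338 lower (3.47%). No gene passed with no filter on the mean, with a gene's probes averaged, with all 6 older arrays in the fit, with siCtrl and MOCK averaged, or without the block. In contrast, 64 to 90 passed in 4 fits that leaned on a spread pooled over genes rather than on a gene's own spread between the days. FCRLA, an Fc receptor-like protein of B cells, rose. It read 8.19 and 9.65 in siMLL/AF4 cells on days 2 and 4, against 4.84 and 6.12 in siCtrl cells and 5.43 and 6.23 in MOCK cells. The mean difference was 3.44 ± 0.13 (SD, n = 2 days), 10.8-fold, with a limma adjusted p of 0.0181. DYNC1I1, an intermediate chain of the motor protein dynein, rose too, with 6.71 and 7.99 in siMLL/AF4 cells, against 3.35 and 4.55 in siCtrl cells and 4.03 and 0.79 in MOCK cells. Its mean difference was 3.40 ± 0.05 (SD, n = 2 days; limma adjusted p = 0.0181), and as both siCtrl values were under the floor its fold is uncertain.

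IFI44, an interferon-induced protein, rose 8.31-fold. Its values were 8.75 and 9.91 in siMLL/AF4 cells, against 5.50 and 7.05 in siCtrl cells and 5.54 and 6.65 in MOCK cells, a mean difference of 3.05 ± 0.28 (SD, n = 2 days; limma adjusted p = 0.0336). GABARAPL1, a ubiquitin-like protein of autophagosome membranes with a near-identical pseudogene whose signal the array may share, rose 7.83-fold. It read 7.97 and 9.62 in siMLL/AF4 cells, against 4.80 and 6.85 in siCtrl cells and 6.12 and 7.57 in MOCK cells, a mean difference of 2.97 ± 0.29 (SD, n = 2 days; limma adjusted p = 0.0336). In these 4 genes both siMLL/AF4 values lay above all 4 control values, as in 7.96% of the 9564 genes with MOCK values on both days, while 17.7% of all genes lay above both siCtrl values alone; genes picked for a large difference are bound to be separated in this way more often. DGKH, a diacylglycerol kinase, fell, with 2.59 and 3.46 in siMLL/AF4 cells against 5.98 on both days in siCtrl cells (limma adjusted p = 0.0443). Both siMLL/AF4 values of DGKH were under the floor, and MOCK cells had no value on day 2 and 4.94 on day 4.

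The days agreed for few genes. At the 2-fold threshold 74 genes (0.759%) were higher and 40 (0.410%) lower in siMLL/AF4 cells on both days, while 6 (0.0616%) were higher on day 2 and lower on day 4 and 18 (0.185%) the other way round. These counts depended on the settings: the 114 agreeing genes became 206 with the floor at the 25th percentile, 216 with no floor, and 321 with MOCK as control, of which 35 were shared with the 114. On day 2 alone 477 genes (4.89%) were 2-fold higher and 502 (5.15%) 2-fold lower, and on day 4 alone 296 (3.04%) and 225 (2.31%). The 74 shared higher genes were thus 15.5% of those of day 2 and 25% of those of day 4, and the 40 shared lower genes 7.97% and 17.8%. Across the 9748 genes, which are not independent replicates, the differences of the 2 days had a Pearson r of 0.093 and a Spearman rho of 0.098, and 52.2% of genes had the same sign on both days. Around the threshold the smaller of the 2 floored differences was 1.00 for ANKRD33 and CYB5R1 and 1.01 for PLAA just inside, and 1.00 for PRDM11, 0.99 for KIAA0513 and 0.98 for NR4A2 just outside.

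**Figure D1:**
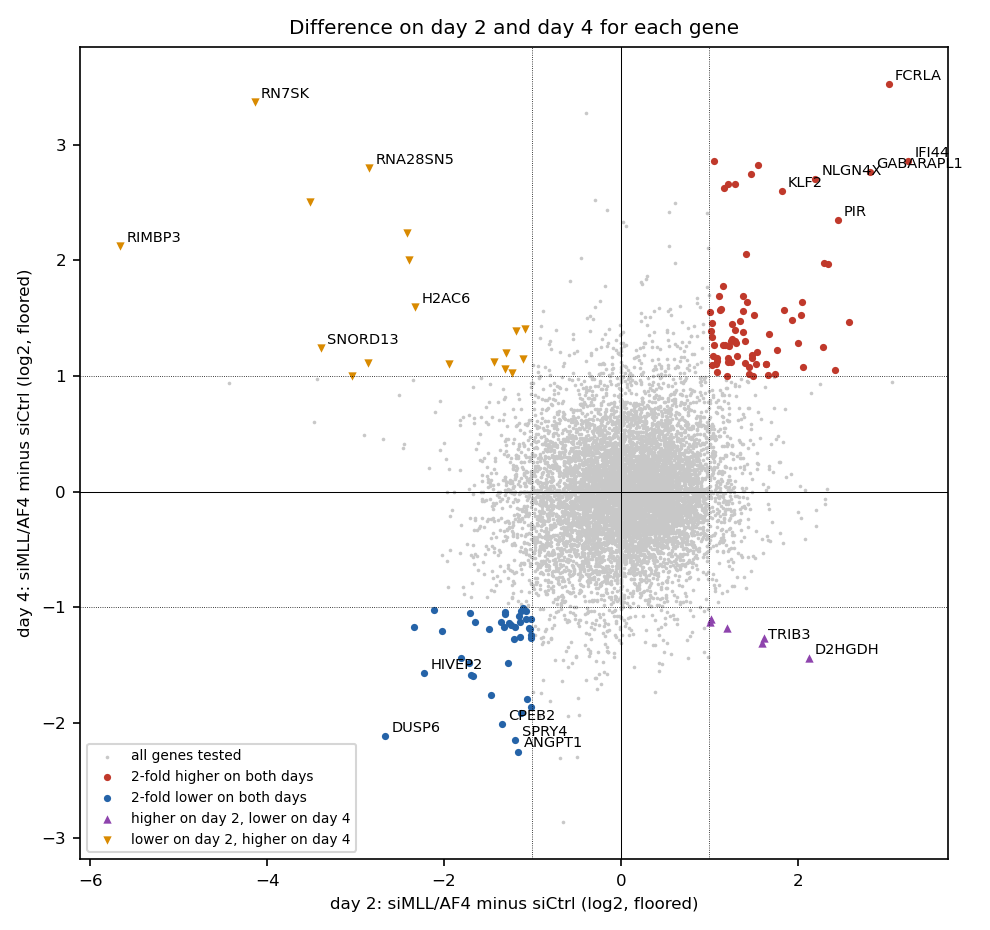
Each point is a gene tested, with the siMLL/AF4 minus siCtrl difference (log2, floored) of day 2 on the x axis and of day 4 on the y axis; dotted lines mark 2-fold. Red circles are the 74 genes 2-fold higher and blue circles the 40 genes 2-fold lower on both days; purple and orange triangles are the 6 and 18 genes that turned around, and the grey cloud of the other genes shows little common slope.

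Beside the genes that passed the test, the 15 highest agreeing genes included some of B cells and innate immunity. TLR10, a Toll-like receptor of B cells, read 9.55 and 10.01 in siMLL/AF4 cells, against 7.25 and 8.03 in siCtrl cells and 7.46 and 7.36 in MOCK cells. GBP2, an interferon-induced guanylate-binding protein, read 9.50 and 9.88 in siMLL/AF4 cells, against 7.16 and 7.91 in siCtrl cells and 8.28 and 8.24 in MOCK cells. SCIMP, a membrane adaptor of antigen-presenting cells, read 8.80 and 8.85 in siMLL/AF4 cells, against 6.22 and 7.38 in siCtrl cells and 7.72 and 7.67 in MOCK cells. In all 3 both siMLL/AF4 values were above the 4 control values, with mean differences of 2.14 ± 0.23, 2.16 ± 0.26 and 2.02 ± 0.79 (SD, n = 2 days), and none passed the adjusted limma test.

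Signalling and motility genes were also among the 15 highest. KLF2, a zinc finger factor of lymphocyte quiescence and trafficking, read 7.71 and 9.40 in siMLL/AF4 cells, against 5.89 and 6.81 in siCtrl cells and 7.38 and 6.32 in MOCK cells. PRKCH, a protein kinase C isoform, read 7.27 and 7.06 in siMLL/AF4 cells, against 5.22 and 5.42 in siCtrl cells and 5.91 and 6.59 in MOCK cells. ELMO1, which activates the GTPase Rac together with DOCK proteins, read 9.22 and 8.57 in siMLL/AF4 cells, against 7.18 and 7.05 in siCtrl cells and 7.05 and 6.54 in MOCK cells. ENPP2, the secreted enzyme autotaxin that makes lysophosphatidic acid, read 7.48 and 7.61 in siMLL/AF4 cells, against 5.55 and 6.13 in siCtrl cells and 6.47 and 5.45 in MOCK cells. In these genes too the siMLL/AF4 values lay above all 4 control values. Yet for KLF2 on day 2 siMLL/AF4 minus MOCK was 0.33 and siCtrl minus MOCK -1.49. For PRKCH on day 4 these differences were 0.47 and -1.17, so most of both differences stood against the siCtrl arrays.

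The remaining genes of the 15 have roles in redox control, protein turnover and adhesion. PIR, an iron-binding nuclear protein induced by the antioxidant factor NRF2, read 9.13 and 10.03 in siMLL/AF4 cells, against 6.68 and 7.68 in siCtrl cells and 7.49 and 8.02 in MOCK cells. FBXO32, a ubiquitin ligase subunit induced by FOXO factors, read 7.99 and 8.72 in siMLL/AF4 cells, against 6.14 and 7.14 in siCtrl cells and 7.61 and 7.73 in MOCK cells. NLGN4X, a neuroligin, read 7.94 and 8.83 in siMLL/AF4 cells, against 5.74 and 6.13 in siCtrl cells and 5.45 and 6.35 in MOCK cells. CABLES1, a cyclin-dependent kinase binding protein, differed by nearly the same amount on both days, with 6.89 and 7.00 in siMLL/AF4 cells against 5.38 and 5.47 in siCtrl cells. For FBXO32 the MOCK cells lay close under the siMLL/AF4 cells on day 2, so most of its day 2 difference stood against the siCtrl array.

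**Figure D2:**
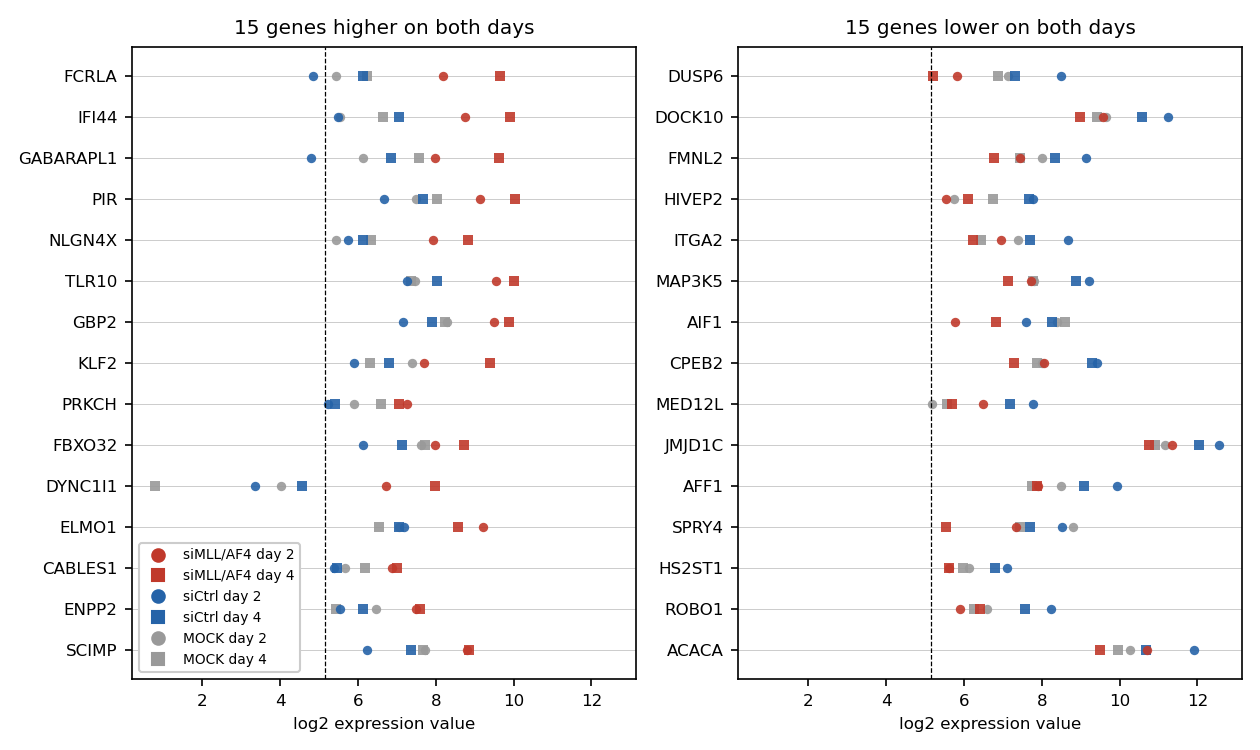
Log2 expression value on each of the 6 arrays of the older version for the 15 genes most clearly higher and the 15 most clearly lower on both days; red is siMLL/AF4, blue siCtrl and grey MOCK, circles are day 2 and squares day 4, and the dashed line is the floor of 5.16. Among the higher genes the red points lie right of the blue points; among the lower genes the red points lie left of the blue points of the same day, with MOCK often beside the red points.

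Of the 40 genes lower on both days, the lowest was DUSP6, a phosphatase that ERK signalling induces and that dephosphorylates ERK. It read 5.83 and 5.20 in siMLL/AF4 cells, against 8.50 and 7.31 in siCtrl cells and 7.13 and 6.87 in MOCK cells, a mean difference of -2.39 ± 0.39 (SD, n = 2 days; limma adjusted p = 0.0997). SPRY4, an inhibitor of receptor tyrosine kinase signalling, read 7.33 and 5.54 in siMLL/AF4 cells, against 8.52 and 7.68 in siCtrl cells and 8.80 and 7.43 in MOCK cells. AIF1, an actin-binding protein of macrophages, read 5.77 and 6.82 in siMLL/AF4 cells, against 7.58 and 8.26 in siCtrl cells and 8.39 and 8.61 in MOCK cells. For DUSP6, SPRY4 and AIF1 both siMLL/AF4 values lay below all 4 control values, as in 4.52% of the 9564 genes.

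A further set of the lower genes separated siCtrl from both other treatments. JMJD1C, of the histone demethylase family, read 11.34 and 10.76 in siMLL/AF4 cells, against 12.56 and 12.04 in siCtrl cells and 11.18 and 10.90 in MOCK cells. CPEB2, a regulator of mRNA translation, read 8.06 and 7.29 in siMLL/AF4 cells, against 9.41 and 9.30 in siCtrl cells and 8.00 and 7.87 in MOCK cells. MED12L, a Mediator subunit, read 6.50 and 5.70 in siMLL/AF4 cells, against 7.78 and 7.18 in siCtrl cells and 5.19 and 5.57 in MOCK cells. Here the siCtrl values stood above the other 4, so the difference from siCtrl was not matched by a like difference from MOCK.

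The 15 lowest also held 4 genes with roles in the cytoskeleton, adhesion or guidance. DOCK10, an exchange factor of the GTPases CDC42 and Rac, read 9.57 and 8.97 in siMLL/AF4 cells, against 11.24 and 10.57 in siCtrl cells and 9.65 and 9.41 in MOCK cells. FMNL2, a formin that extends actin filaments, read 7.45 and 6.77 in siMLL/AF4 cells, against 9.14 and 8.35 in siCtrl cells and 8.01 and 7.44 in MOCK cells. ITGA2, a collagen-binding integrin chain, read 6.96 and 6.22 in siMLL/AF4 cells, against 8.68 and 7.70 in siCtrl cells and 7.40 and 6.43 in MOCK cells. ROBO1, the receptor of the guidance factor SLIT, read 5.90 and 6.40 in siMLL/AF4 cells, against 8.24 and 7.58 in siCtrl cells and 6.59 and 6.26 in MOCK cells. Both siMLL/AF4 values lay below both siCtrl values in these 4 genes, as in 11.5% of all genes tested, and the choice of genes 2-fold lower on both days favours such a separation. In all 4 genes the siCtrl values also stood above the MOCK values. The siMLL/AF4 minus MOCK differences on days 2 and 4 were -0.08 and -0.44 in DOCK10 and -0.56 and -0.68 in FMNL2. They were -0.44 and -0.21 in ITGA2 and -0.68 and 0.14 in ROBO1. None of the 4 passed the adjusted limma test. HIVEP2, MAP3K5, HS2ST1, ACACA and AFF1, whose values are given above, completed the 15, with mean differences of -1.89, -1.61, -1.34, -1.19 and -1.62. In each of these genes siCtrl also stood above MOCK on both days, in HIVEP2 by 2.04 and 0.94 and in MAP3K5 by 1.40 and 1.09. The siMLL/AF4 minus MOCK differences were -0.19 and -0.62 in HIVEP2 and -0.07 and -0.67 in MAP3K5. They were -0.52 and -0.36 in HS2ST1 and 0.44 and -0.45 in ACACA.

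For 12 of these 30 genes another probe had values on all 4 arrays, and of 13 such probes 11 had the same sign on both days as the brighter probe. The exceptions were dim second probes of SPRY4 and ROBO1, which were higher in siMLL/AF4 cells on day 2 by 1.46 and 1.15. Set against MOCK, which shares the siMLL/AF4 or siCtrl arrays with the comparison above, the 74 higher genes had median differences of 0.82 and 1.17 for siMLL/AF4 minus MOCK on days 2 and 4 and -0.78 and -0.27 for siCtrl minus MOCK. The 40 lower genes had medians of -0.32 and -0.71 for siMLL/AF4 minus MOCK and 1.12 and 0.74 for siCtrl minus MOCK. The lower genes thus differed more between siCtrl and MOCK than between siMLL/AF4 and MOCK on the median. With siCtrl set against MOCK in the same way, 243 of 9564 genes (2.54%) were 2-fold higher and 94 (0.983%) 2-fold lower on both days.

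Among 36 lists of pathways and gene families, 7 had a median past 0.25 in the same direction on both days, beside medians of 0.09 and -0.02 over all genes tested. NRF2 targets and proteasome subunits were on the higher side. Cholesterol synthesis, fatty acid synthesis, ERK feedback genes, MLL/AF4 target genes and stem and progenitor genes were on the lower side. Only cholesterol synthesis and NRF2 targets stayed past 0.25 when MOCK stood in for siCtrl on day 2 alone, an alternative added after seeing the data, and of the 7 lists the same 2 were past it against MOCK on both days. No member of these 7 lists passed the adjusted limma test, so the changes are given as values.

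NRF2 targets, the antioxidant and glutathione genes, had medians of 0.64 and 0.55, and 8 of 10 tested members were higher on both days, beside 27.6% of all genes. GCLM, the modifier subunit of the enzyme that starts glutathione synthesis, read 10.17 and 11.08 in siMLL/AF4 cells, against 8.82 and 9.61 in siCtrl cells and 9.38 and 9.21 in MOCK cells. NQO1, a quinone reductase, was higher by 1.54 on day 2 and 1.21 on day 4. Both siMLL/AF4 values of GCLM lay above all 4 control values. ME1, malic enzyme, GCLC, the catalytic partner of GCLM, and PGD of the pentose phosphate pathway had mean differences of 0.96, 0.75 and 0.72, and 3 members reached an unadjusted limma p under 0.05 in the higher direction, beside 4.31% of all genes. PRDX1, a peroxiredoxin, and GSR, glutathione reductase, had opposite signs on the 2 days. Against MOCK the list's medians were 0.73 and 0.75 for siMLL/AF4 and -0.19 and 0.09 for siCtrl.

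NRF2 acts through the antioxidant response element, whose core letters TGACNNNGC were searched on both strands of the 250 bases before each gene's start. This search was added after seeing the list's values. The letters were found in 4 of 8 NRF2 targets with a promoter sequence, beside 11% of 27305 promoters, namely GCLM, ME1, PGD and TXNRD1. The promoter of GCLM is printed because GCLM led the list. It is the RefSeq sequence (GRCh38.p14, chr1:93909431-93909680, minus strand, in the direction of the gene), with the match in capitals.
GCLM: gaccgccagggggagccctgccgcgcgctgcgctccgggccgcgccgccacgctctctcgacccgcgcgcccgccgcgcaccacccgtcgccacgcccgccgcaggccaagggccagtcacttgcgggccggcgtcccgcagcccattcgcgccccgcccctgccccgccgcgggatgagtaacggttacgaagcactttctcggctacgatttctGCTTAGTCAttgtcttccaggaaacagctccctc
A match is a description of the letters and not a bound site.

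Proteasome subunits had medians of 0.52 and 0.66, and 28 of 33 tested members were higher on both days, beside 27.6% of all genes. The largest differences were in the regulatory particle that unfolds substrates: PSMD3 differed by 0.86 and 1.34, PSMC6 by 1.20 and 0.90, PSMD2 by 1.33 and 0.72, and PSMC1 by 1.33 and 0.62 on days 2 and 4. PSMD1 read 11.98 and 12.21 in siMLL/AF4 cells, against 11.04 and 11.23 in siCtrl cells and 11.36 and 11.49 in MOCK cells. PSMB9, an interferon-inducible catalytic subunit of the immunoproteasome, was lower on both days, by 0.61 and 0.12. The other members lower on both days were PSMA3, which differed by -0.89 and -0.22, and PSMB10, which differed by -0.18 and -0.01. Against MOCK, siMLL/AF4 cells had list medians of 0.01 and 0.44 and siCtrl cells -0.33 and -0.25, and on day 2 the siMLL/AF4 median was near 0 against MOCK.

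Cholesterol synthesis had a median of -0.53 on each day, with 10 of 17 tested members lower on both days, beside 24.7% of all genes, and none higher on both. HMGCS1, which makes the precursor of mevalonate, read 11.72 and 10.86 in siMLL/AF4 cells, against 12.57 and 11.74 in siCtrl cells and 12.10 and 11.41 in MOCK cells. LSS, lanosterol synthase, read 9.70 and 8.03 in siMLL/AF4 cells, against 10.47 and 8.88 in siCtrl cells and 10.30 and 9.76 in MOCK cells. CYP51A1, lanosterol demethylase, read 8.26 and 7.94 in siMLL/AF4 cells, against 9.28 and 8.56 in siCtrl cells and 8.53 and 8.09 in MOCK cells. In each of these genes the siMLL/AF4 value was the lowest of its day. FDPS was lower by 1.24 on day 2 and 0.34 on day 4, and DHCR7 by 0.16 and 1.35. MVK, PMVK and SC5D were higher on day 2 and lower on day 4. The list's medians against MOCK were -0.60 and -0.78 for siMLL/AF4 and -0.31 and -0.38 for siCtrl. The letters TCACNCCAC of the sterol response element were found on neither strand of the 250 bases before the start of 16 of these genes, beside 0.875% of all promoters, which says only that these letters are not in this window.

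Fatty acid synthesis had medians of -0.30 and -0.86, and 8 of 11 tested members were lower on both days, beside 24.7% of all genes. ACACA, acetyl-CoA carboxylase, read 10.71 and 9.50 in siMLL/AF4 cells, against 11.90 and 10.67 in siCtrl cells and 10.27 and 9.95 in MOCK cells. SCD, which introduces the double bond of oleate, read 12.15 and 10.42 in siMLL/AF4 cells, against 12.94 and 11.69 in siCtrl cells and 12.39 and 11.61 in MOCK cells. FADS1, FADS2 and FASN were lower by 0.86, 0.94 and 0.93 on day 4 and by 0.46, 0.30 and 0.19 on day 2. SREBF1, which encodes the sterol regulatory factor of these genes, turned from higher by 0.45 on day 2 to lower by 0.93 on day 4. Against MOCK the siMLL/AF4 medians were 0.08 on day 2 and -0.62 on day 4.

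ERK feedback genes had medians of -0.59 and -0.52, with 6 of 10 tested members lower on both days, beside 24.7% of all genes. After DUSP6 and SPRY4 came EGR1, an early response transcription factor, with 7.17 and 6.99 in siMLL/AF4 cells against 8.35 and 7.69 in siCtrl cells and 8.11 and 7.84 in MOCK cells. SPRED2, an inhibitor of RAS signalling, differed by -0.58 and -0.99. SPRY1 went the other way, by 1.21 and 0.42, and IER3 was lower by 1.24 on day 2 and higher by 2.33 on day 4, with values near the floor. Against MOCK the list's medians were -0.22 and 0.06 for siMLL/AF4 and 0.16 and 0.30 for siCtrl, so that its direction on day 4 depended on the control. Immediate early genes as a wider list had medians of 0.37 and 0.08, in which NR4A2 and DUSP1 were higher on both days by a mean of 1.82 and 0.95.

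MLL/AF4 target genes had medians of -0.47 and -0.48, and 22 of 32 tested members were lower on both days, beside 24.7% of all genes. Beside CPEB2 and JMJD1C, CSPG4, the NG2 antigen that marks MLL-rearranged leukaemia, read 7.37 and 6.14 in siMLL/AF4 cells, against 8.68 and 7.18 in siCtrl cells and 7.61 and 7.24 in MOCK cells. PROM1, the stem-cell antigen CD133, read 14.05 and 12.61 in siMLL/AF4 cells, against 14.54 and 14.39 in siCtrl cells and 13.93 and 13.91 in MOCK cells. REEP3, a protein of the endoplasmic reticulum, went against its list and read 11.43 and 10.95 in siMLL/AF4 cells, against 10.14 and 8.29 in siCtrl cells and 7.91 and 6.93 in MOCK cells. MEIS1, a homeobox cofactor in the list of HOX genes and cofactors, differed by -0.36 and -0.23. The direction of the list depended on the control: against MOCK the siMLL/AF4 medians were 0.17 and 0.15 and the siCtrl medians 0.68 and 0.58.

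Stem and progenitor genes overlapped with that list and had medians of -0.49 and -0.93. Of 9 tested members 7 were lower on both days, beside 24.7% of all genes. ANGPT1, a ligand of the receptor TEK, read 10.97 and 9.38 in siMLL/AF4 cells, against 12.13 and 11.63 in siCtrl cells and 11.41 and 10.75 in MOCK cells. FLT3, the receptor kinase of early progenitors, read 14.00 and 13.07 in siMLL/AF4 cells, against 14.22 and 14.00 in siCtrl cells and 13.85 and 13.47 in MOCK cells. On day 4 PROM1, ANGPT1 and FLT3 were lowest in siMLL/AF4 cells, whereas on day 2 PROM1 and FLT3 lay between siCtrl and MOCK. Against MOCK the list's medians were 0.12 and -0.40.

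**Figure D3:**
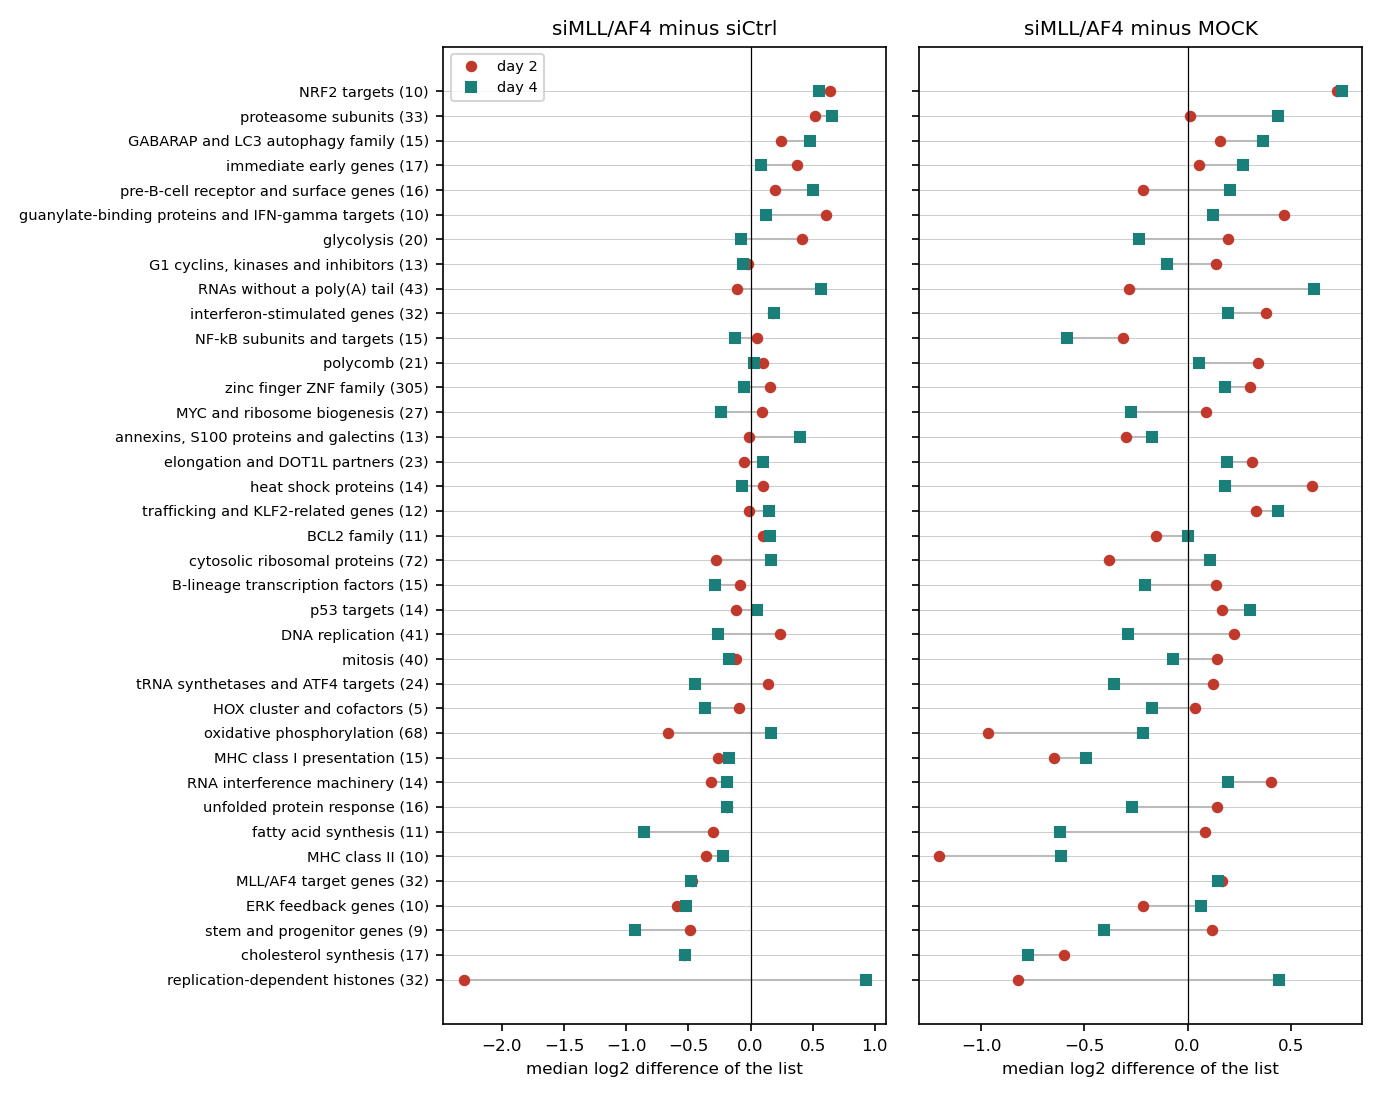
Median log2 difference of each gene list on day 2 (red circles) and day 4 (green squares), for siMLL/AF4 minus siCtrl on the left and siMLL/AF4 minus MOCK on the right; the number of tested genes is in brackets. Histones have the widest split between the days, -2.31 and 0.93 against siCtrl, and NRF2 targets lie right of 0 and cholesterol synthesis left of 0 in both panels.

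Interferon-stimulated genes as a list stayed near the median of all genes on days 2 and 4, with 0.18 on each day and 13 of 32 tested members higher on both days, beside 27.6% of all genes. Lower on both days were 6 members, beside 24.7% of all genes. After IFI44, the higher side held several antiviral genes. IFIT3, an antiviral RNA-binding family member, read 7.89 and 8.94 in siMLL/AF4 cells, against 6.51 and 7.37 in siCtrl cells and 7.22 and 7.34 in MOCK cells. IFIT2 read 8.41 and 8.76 in siMLL/AF4 cells, against 7.12 and 7.36 in siCtrl cells and 7.03 and 6.81 in MOCK cells. IFIT1 read 5.83 and 6.57 in siMLL/AF4 cells, against 2.33 and 5.33 in siCtrl cells and 4.43 and 5.73 in MOCK cells, so that its day 2 control values were under the floor. MX2, an antiviral GTPase, differed by 1.19 and 0.97. On the lower side, OAS3, a synthetase of the RNase L activator, read 7.24 and 6.62 in siMLL/AF4 cells, against 8.05 and 7.72 in siCtrl cells and 7.38 and 6.68 in MOCK cells. IFITM3, a membrane protein that hinders viral entry, differed by -1.65 and -0.39, and CMPK2, a mitochondrial nucleotide kinase, by -0.48 and -0.76 with values near or under the floor. An unadjusted limma p under 0.05 was reached by 5 members in the higher and 2 in the lower direction, beside 4.31% and 3.47% of all genes. IFI6, BST2 and RIGI were lower on day 2 and higher on day 4. On day 6 the list's median was 1.83, with 28 of 30 members higher, beside 43.9% of all genes.

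The letters GAAA, any 2 bases and GAAA again, as in the interferon-stimulated response element, were found on either strand in 14 of the 25 promoters of this list (56.0%), beside 3.07% of all promoters. They were also found in the promoter of FCRLA, which is in another list and was looked up because it rose. No count was made for the other rising genes outside the interferon list, so this match has no share to set beside it. The promoters of IFI44 and FCRLA are shown because both genes rose, and that of IFIT3 for comparison, as RefSeq sequences on the plus strand of GRCh38.p14 (chr1:78649539-78649788, chr1:161706979-161707228 and chr10:89327747-89327996), with the matches in capitals.
IFI44: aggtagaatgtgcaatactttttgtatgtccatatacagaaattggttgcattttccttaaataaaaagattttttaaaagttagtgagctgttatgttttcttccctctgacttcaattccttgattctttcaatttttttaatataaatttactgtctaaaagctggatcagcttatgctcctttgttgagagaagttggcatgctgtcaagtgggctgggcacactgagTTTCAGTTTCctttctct
FCRLA: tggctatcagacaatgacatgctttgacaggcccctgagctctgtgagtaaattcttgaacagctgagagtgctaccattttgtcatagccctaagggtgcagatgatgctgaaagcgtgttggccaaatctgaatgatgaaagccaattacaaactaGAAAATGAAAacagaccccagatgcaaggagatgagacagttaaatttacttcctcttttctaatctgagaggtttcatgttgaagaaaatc
IFIT3: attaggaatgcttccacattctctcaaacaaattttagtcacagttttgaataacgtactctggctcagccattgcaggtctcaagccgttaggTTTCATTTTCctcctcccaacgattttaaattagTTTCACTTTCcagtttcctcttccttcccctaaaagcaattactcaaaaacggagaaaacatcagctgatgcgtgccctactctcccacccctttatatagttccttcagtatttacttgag
Counted from the start of the gene, the match began at -18 in IFI44 and at -92 in FCRLA, and IFIT3 held 2 matches.

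B-cell receptor and surface genes had medians of 0.20 and 0.50. VPREB3, a chaperone of the pre-B-cell receptor, read 5.33 and 6.38 in siMLL/AF4 cells, against 3.37 and 3.76 in siCtrl cells and 5.11 and 5.20 in MOCK cells. Both siCtrl values of VPREB3 and its MOCK value of day 2 were under the floor, so its fold is uncertain. CD79A, a signalling chain of the B-cell receptor, read 11.50 and 11.90 in siMLL/AF4 cells, against 10.55 and 11.04 in siCtrl cells and 11.71 and 11.42 in MOCK cells. IGLL1, a surrogate light chain, was lower by 0.29 on day 2 and higher by 2.52 on day 4, and VPREB1 by 0.76 and 0.48. CD22 was lower on both days, by 0.73 and 0.65. Of the 16 tested members 9 were higher on both days, beside 27.6% of all genes. FCRLA and TLR10 were higher by more than 2-fold on each day, and CD22 alone was lower on both. An unadjusted limma p under 0.05 was reached by 4 members in the higher direction and by none in the lower, beside 4.31% and 3.47% of all genes. The siMLL/AF4 medians against MOCK were -0.21 and 0.20.

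In the autophagy list, with medians of 0.25 and 0.48, GABARAPL1 was joined by WIPI1, a phosphoinositide-binding protein of early autophagosomes, which differed by 1.44 and 1.01. WIPI1 read 6.78 and 7.03 in siMLL/AF4 cells, against 5.33 and 6.01 in siCtrl cells and 6.87 and 6.92 in MOCK cells, so that siMLL/AF4 cells were close to MOCK and the difference lay on the siCtrl arrays. ULK1, the kinase that starts autophagy, differed by 0.58 and 0.56, and SQSTM1, an autophagy receptor, by 0.25 and 1.25. Of the 15 tested members 8 were higher and 2 lower on both days, beside 27.6% and 24.7% of all genes. The 2 lower ones were TFEB, a transcription factor of lysosomal and autophagy genes, by 0.37 and 2.45 with both siMLL/AF4 values under the floor, and ATG5, which takes part in the lipidation of LC3, by 0.20 and 0.49. Against MOCK the list's medians were 0.15 and 0.37 for siMLL/AF4 and -0.26 and 0.00 for siCtrl. Among survival genes BCL2 was lower on both days, by 0.57 and 0.50, while PMAIP1 and BMF, which promote apoptosis, were higher by a mean of 0.94 and 0.73. BAX was lower by 1.08 on day 2 and higher by 0.59 on day 4. None of these genes apart from GABARAPL1 passed the adjusted limma test.

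Trafficking genes as a list stayed near 0, with medians of -0.01 and 0.14, yet RGS1, which dampens chemokine receptor signalling, read 6.13 and 7.57 in siMLL/AF4 cells, against 4.43 and 4.81 in siCtrl cells and 4.11 and 2.31 in MOCK cells. All control values of RGS1 were under the floor, so its fold is uncertain. ANXA1, a phospholipid-binding annexin, read 6.21 and 8.41 in siMLL/AF4 cells, against 3.72 and 5.55 in siCtrl cells and 4.82 and 5.94 in MOCK cells. Its day 2 control values were under the floor. HLA-DPA1, a chain of MHC class II, read 10.13 and 9.54 in siMLL/AF4 cells, against 11.06 and 11.48 in siCtrl cells and 11.94 and 12.04 in MOCK cells. MHC class II had medians of -0.35 and -0.22 against siCtrl and -1.20 and -0.61 against MOCK. The siCtrl cells were lower than MOCK as well, with medians of -0.56 and -0.57.

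The clearest turn-around between the days was that of replication-dependent histone genes, whose transcripts lack a poly(A) tail. Their median was -2.31 on day 2 and 0.93 on day 4, and 28 of 32 tested genes were lower on day 2 and higher on day 4, beside 20.1% of all genes. H2AC6 read 5.77 and 6.79 in siMLL/AF4 cells on days 2 and 4, against 8.10 and 5.19 in siCtrl cells and 5.65 and 5.75 in MOCK cells. H2AC18 read 5.95 and 7.83 in siMLL/AF4 cells, against 8.81 and 6.71 in siCtrl cells and 7.45 and 7.36 in MOCK cells. The siCtrl array of day 2 had the highest value of both genes. Over the 26 histone genes with a value on all 6 older arrays, each centred on its own mean, the medians were -0.94 and 0.44 in siMLL/AF4 cells, 1.46 and -0.32 in siCtrl cells and 0.03 and -0.01 in MOCK cells. Histone genes are near-identical copies of each other, so their probes may share signal.

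Other RNAs without a poly(A) tail were among the same 18 turning genes. Of the 32 tested histones 6 were among the 18, and of 43 tested RNAs of the other kind 6, beside 0.185% of all genes. The RNAs of the other kind were listed after these genes were seen, so their count is not independent of them. RN7SK, the RNA that holds the elongation factor P-TEFb inactive, read 10.97 and 13.17 in siMLL/AF4 cells, against 15.11 and 9.80 in siCtrl cells and 12.58 and 9.62 in MOCK cells. RNA28SN5, a 28S ribosomal RNA, read 10.89 and 13.06 in siMLL/AF4 cells, against 13.74 and 10.26 in siCtrl cells and 10.95 and 10.15 in MOCK cells. RNU6ATAC, an RNA of the minor spliceosome, read 5.05 and 7.76 in siMLL/AF4 cells, against 8.68 and 5.25 in siCtrl cells and 5.22 and 4.27 in MOCK cells. Levels crossed over in the same way in RNU11, of the same spliceosome, with 5.29 and 7.95 in siMLL/AF4 cells against 7.69 and 5.95 in siCtrl cells. RPPH1, the RNA of ribonuclease P, and SNORD13, a small nucleolar RNA, were likewise highest on the siCtrl array of day 2, and RIMBP3, a protein-coding gene, read 6.63 and 9.16 in siMLL/AF4 cells against 12.30 and 7.04 in siCtrl cells. Among the 6 older arrays, 13 of the 18 genes were highest on the siCtrl array of day 2 and 5 on the siMLL/AF4 array of day 4. The choice of these genes fixed that, of the siMLL/AF4 and siCtrl arrays, only these could hold the highest value. No MOCK array held it. The part of the siCtrl array of day 2 in the turn-arounds was not tested apart from the MOCK values.

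A wider list of 43 such RNAs, added after seeing these genes, had medians of -0.11 and 0.56. Unlike the histones it was not raised as a whole on the siCtrl array of day 2: the centred medians of the 42 RNAs on all 6 arrays were -0.44 and 0.55 in siMLL/AF4 cells, -0.23 and -0.14 in siCtrl cells and -0.01 and 0.14 in MOCK cells. The siMLL/AF4 array of day 4 had the highest median of this class. SNORD15B and SNORD55, small nucleolar RNAs, had the highest of their 6 values on that array, with 7.50 and 7.64 in siMLL/AF4 cells of day 4 against 5.04 and 5.34 in siCtrl cells.

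**Figure D4:**
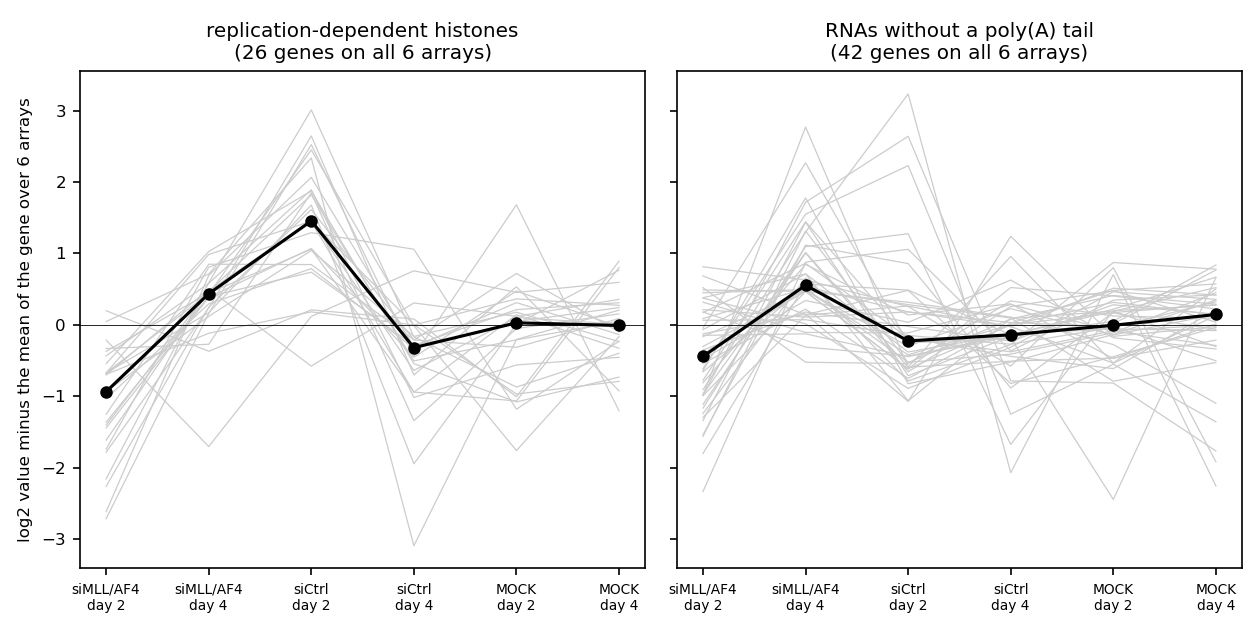
Log2 value minus the gene's mean over the 6 older arrays, for 26 replication-dependent histone genes (left) and 42 RNAs without a poly(A) tail (right); grey lines are genes and black points the median per array. The histone median is highest, at 1.46, on the siCtrl array of day 2 and lowest, at -0.94, on the siMLL/AF4 array of day 2.

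Genes of respiration and translation turned in the same direction by less. Oxidative phosphorylation had medians of -0.66 and 0.17. Of 68 tested genes 46 were lower on day 2 and higher on day 4, beside 20.1% of all genes. NDUFC1, a complex I subunit, was lower by 1.59 on day 2 and higher by 0.50 on day 4. UQCRB, a complex III subunit, read 7.96 and 9.87 in siMLL/AF4 cells, against 9.11 and 9.28 in siCtrl cells and 9.22 and 9.66 in MOCK cells. For both genes the siMLL/AF4 array of day 2 held the lowest value. Cytosolic ribosomal proteins had medians of -0.28 and 0.16, with 45 of 72 lower and then higher, beside the same 20.1% of all genes. RPS28 read 10.70 and 12.98 in siMLL/AF4 cells, against 12.74 and 12.20 in siCtrl cells and 12.25 and 12.41 in MOCK cells. Against MOCK, oxidative phosphorylation had medians of -0.97 and -0.21 in siMLL/AF4 cells and -0.46 and -0.23 in siCtrl cells, and ribosomal proteins -0.38 and 0.11 in siMLL/AF4 cells and -0.01 and -0.13 in siCtrl cells.

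The reverse turn was seen in DNA replication genes, with medians of 0.24 and -0.26 and 26 of 41 tested genes higher on day 2 and lower on day 4, beside 27.5% of all genes. MCM2, a subunit of the replicative helicase, read 12.58 and 11.13 in siMLL/AF4 cells, against 12.19 and 11.81 in siCtrl cells and 12.42 and 12.18 in MOCK cells. CDC6, which loads that helicase, was lower on both days, by 0.15 and 1.39. Glycolysis had medians of 0.41 and -0.08. The tRNA synthetases and ATF4 targets of the amino acid response had medians of 0.14 and -0.44. Of the 6 single genes that were 2-fold higher and then 2-fold lower, TRIB3, a pseudokinase induced by ATF4, read 6.89 and 6.61 in siMLL/AF4 cells, against 5.29 and 7.92 in siCtrl cells and 6.92 and 7.99 in MOCK cells. D2HGDH, a mitochondrial hydroxyglutarate dehydrogenase, read 8.43 and 7.18 in siMLL/AF4 cells, against 6.30 and 8.62 in siCtrl cells and 8.19 and 8.65 in MOCK cells. On day 2 siMLL/AF4 cells were thus near MOCK for both genes, and the siCtrl array was the lowest of 6 for 4 of the 6 genes. Of the arrays compared, genes chosen as higher and then lower can be lowest only there or on the siMLL/AF4 array of day 4. No treatment by day effect could be tested, since 1 array per treatment and day leaves no residual degrees of freedom.

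For genes that differed on a single day the extreme value also lay mostly on a single array. Choosing them by a large difference on that day favours this, so the counts do not single out an array. The 6 genes most clearly higher on day 2 with a day 4 difference within 0.25 were FRS3, PER3, SLC25A10, PLD3, ZFP36 and NAF1, and in all 6 the siCtrl array of day 2 held the lowest value of the 6 older arrays. ZFP36, which promotes decay of cytokine mRNAs, read 9.44 and 9.29 in siMLL/AF4 cells, against 7.35 and 9.28 in siCtrl cells and 8.83 and 8.96 in MOCK cells. The 6 most clearly lower on day 2 were highest on that same array. On day 4 all 6 higher genes were highest on the siMLL/AF4 array, and 5 of the 6 lower genes were lowest there. WT1, a zinc finger factor expressed in acute leukaemia, read 7.64 and 6.61 in siMLL/AF4 cells, against 7.71 and 8.04 in siCtrl cells and 8.35 and 8.28 in MOCK cells. NQO2, a quinone reductase related to NQO1, read 5.85 and 7.60 in siMLL/AF4 cells, against 6.01 and 5.07 in siCtrl cells and 5.68 and 5.58 in MOCK cells. CYSLTR1, a leukotriene receptor, differed by -0.19 on day 2 and -1.56 on day 4.

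The arrays of day 6, which the fold rule did not use, gave further values for the genes that agreed on days 2 and 4. Of the 74 higher genes 71 had values on day 6, and 57 of these (80.3%) were again higher in siMLL/AF4 cells, beside 43.6% of the other genes and 43.9% of all genes. Their median day 6 difference was 1.11, with a range from -2.48 to 4.79. Of the 40 lower genes 38 had values, and 32 (84.2%) were again lower, beside 55.9% of the other genes and 56.0% of all genes, with a median of -0.78. With values floored, the differences were again 2-fold for 32 of the higher and 16 of the lower genes, beside 5.64% and 7.03% of all genes in those directions, while 3 and 0 were 2-fold in the opposite direction. FCRLA differed by 4.79, GABARAPL1 by 4.10, IFI44 by 3.90 and ENPP2 by 3.61 on day 6. Among the lower genes HIVEP2 differed by -2.59, DUSP6 by -1.97 and MED12L by -1.86, whereas HS2ST1 and ROBO1 were near 0, at -0.08 and -0.11. The 3 exceptions were RABL2A, SMOX and HECTD3, each at least 2-fold lower on day 6. The day 6 difference rests on 1 array per treatment and was not tested. Day 6 had no MOCK array, so a lasting shift in siCtrl cells cannot be told apart there from a shift in siMLL/AF4 cells. On days 2 and 4 the 40 lower genes had medians of 1.12 and 0.74 for siCtrl minus MOCK. For siMLL/AF4 minus MOCK these were -0.32 and -0.71. The 74 higher genes had -0.78 and -0.27 for siCtrl minus MOCK, and 0.82 and 1.17 for siMLL/AF4 minus MOCK.

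**Figure D5:**
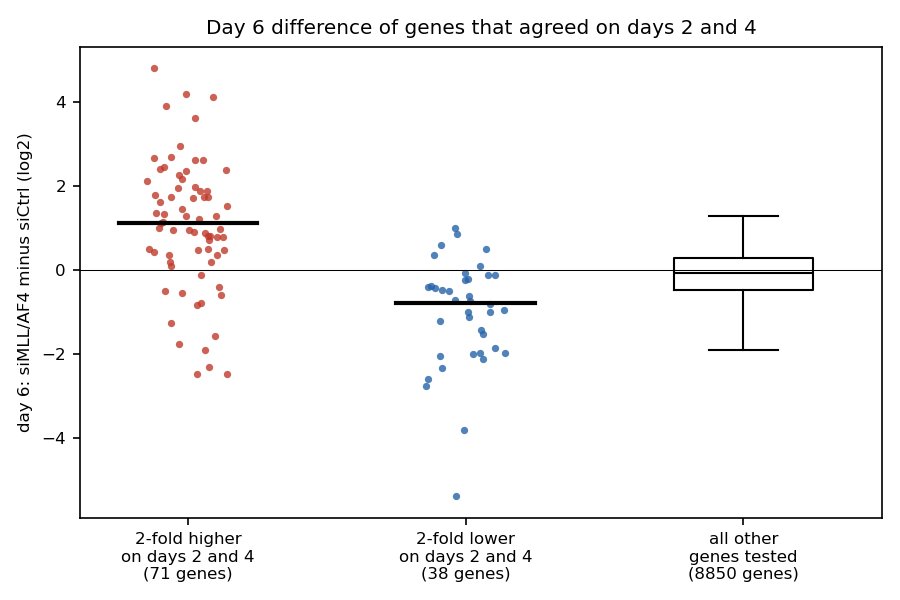
Day 6 difference (siMLL/AF4 minus siCtrl, log2) of the genes 2-fold higher (red) or 2-fold lower (blue) on both day 2 and day 4, with black bars at the medians of 1.11 and -0.78, beside a box plot of the other genes tested (box: quartiles, whiskers: 5th and 95th percentiles). Most red points lie above 0 and most blue points below it.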

How the data were processed

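Biotin-labelled RNA of SEM cells was measured on Illumina bead arrays, per the labels' protocols. The submitters' processing notes name GenomeStudio; its version and settings are not stated there. The values deposited by the authors were taken as natural log expression values already normalized, a base inferred from their range and not stated. They were divided by the natural log of 2. Null entries were treated as missing. Probes with 1 gene symbol in the platform annotation (27210 of 39421) were kept, and symbols were updated through Entrez identifiers to RefSeq names (27177 matched). All columns mapped to a sample.

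The paired comparison used limma 3.58.1 in R 4.3.3 (lmFit and eBayes, two-sided, Benjamini-Hochberg over 9748 genes, threshold 0.05) on 4 arrays, with day as a block, since the labels put both treatments on each day; this left 1 residual degree of freedom. Fold counts, day 6 values, list medians and MOCK values carry no test. The model was tested on simulated data. The number of arrays limits the precision. The genes named were all KMT2A and AFF1 probes, the 15 highest and 15 lowest agreeing genes by the smaller floored difference, the largest turning (up to 8 per direction) and single-day genes (6 per direction), called genes, and up to 5 agreeing and 3 opposing members per list. Genes next to the fold threshold, TXNRD1, PSMA3, PSMB10 and the genes that turned on day 6 were named after their values were seen. Alternatives changed the filter, the probe summary, the normalization, the offset (16 or 64), the floor, the variance model, the control and the block. The members and lists were chosen with earlier results of these data known. Figures were drawn with matplotlib 3.10.9.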

Additional observations from a re-analysis of the deposited data

Results flagged for a closer look

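Differences of opposite sign on the 2 days drew attention to 14 genes and 5 lists. With 1 array per treatment and day, the difference between the days was not tested. The day 2 difference (siMLL/AF4 minus siCtrl) exceeded that of day 4 by 3.57 in D2HGDH, 3.12 in ISM1, 2.94 in ZNF397, 2.91 in TRIB3, 2.38 in ST8SIA5 and 2.14 in CCDC136 on the log2 scale. Taken as day 2 minus day 4, it was -7.79 in RIMBP3, -7.51 in RN7SK, -6.13 in RNU6ATAC, -5.65 in RNA28SN5, -5.21 in RPPH1, -4.64 in SNORD13, -4.40 in RNU11 and -3.92 in H2AC6. Of these 8 genes, 7 were highest on the siCtrl array of day 2, which the choice of turning genes favours. For the lists, the median of day 2 minus that of day 4 was -3.24 in histones, -0.83 in oxidative phosphorylation, -0.75 in the 4 T and NK cell markers, -0.44 in ribosomal proteins and 0.50 in DNA replication genes. Other lists also had medians of opposite sign on days 2 and 4. They were -0.10 and 0.85 in B-cell precursor markers, for example, and -0.11 and 0.56 in RNAs without a poly(A) tail.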

How the results depend on the processing

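The limma count of 5 genes depended on the model. It was 0 with no filter, with the mean of a gene's probes, with all 6 older arrays, with siCtrl and MOCK averaged as the control and without day as a replicate block (662, 726, 767, 1027 and 412 genes at an unadjusted p under 0.05). It was 90 with the filter at the 70th percentile and 64 and 76 with offsets of 16 and 64. In these fits the spread was pooled over all genes and a gene's own spread between the days had no weight. The count was 77 with a trended robust variance, which pools the spread along the level of the genes and can leave genes of outlying spread some weight of their own. Genes called with opposite signs on the days numbered 4, 5 and 4 in the former fits and 0 in the latter. Quantile normalization also gave 5. The 114 agreeing and 24 turning genes became 206 and 102 with the floor at the 25th percentile, 216 and 106 with no floor, and 321 and 14 with MOCK as control, where 35 and 2 of the genes were shared with those against siCtrl. MOCK in place of siCtrl on day 2 alone, added after seeing the data, gave 81 and 35 (41 and 9 shared). The share of agreeing genes with the same direction on day 6 was 81.7%, and 71.4% with either change of the floor; selected under the other settings it was 79.6 to 88.0%. The number of lists past 0.25 on both days was 7, and 2 with MOCK on day 2 alone, and the median of MLL/AF4 target genes reversed to 0.16 with MOCK as control; the cause was not tested. The siMLL/AF4 minus MOCK and siMLL/AF4 minus siCtrl differences share arrays. With either day left out, the list medians of the other day ran from -2.31 to 0.93, both extremes being those of the histones.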

Other observations

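Values missing on whole groups were also counted. Of all probes, 1132 had values on both siMLL/AF4 arrays and Null on both siCtrl arrays, 4 of them with a value at or above the floor, and 1220 showed the reverse, 2 of them with a value at or above the floor.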
